A study of Mus musculus with 6 samples.

Results

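Foxe3, Pitx3, Maf, Prox1, Mab21l1 and Hsf4 are regulators that act after Pax6 in the making of the mouse lens. Their expression was followed in the lens-forming ectoderm of embryos with and without CBP and p300. All probes that the platform annotation assigns to these 6 genes were taken, 8 probes in all, out of 19057 genes named by a single symbol on the array. The set was named for its place downstream of Pax6, with earlier results of these data known. The study lists Foxe3, Pitx3, Maf and Prox1 among transcripts decreased in its CBP/p300 mutants.

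The wild type (WT) arrays held lens placode of wild type embryos at embryonic day 9.5. The knockout (KO) arrays held surface ectoderm labelled CBP/p300-/- of the same age, and every embryo came from a mixed (FVB; 129) background. CBP (gene Crebbp) and p300 (gene Ep300) are lysine acetyltransferases that acetylate histones and other proteins and serve as transcriptional coactivators. The study works with floxed alleles that Cre removes in the presumptive lens ectoderm. It names Pax6-Cre for microdissected embryos of a later day, and the Cre line of the embryos as labelled here is not given in the sources used here. Tissue was cut out by laser from eosin-stained sections, Per the labels, RNA of 3 embryos was pooled per genotype, and 3 amplifications of each pool were hybridised to 6 arrays on 1 BeadChip. The study, writing of embryos of the later day, describes its sets as biological replicates, and the sources do not settle which holds for these arrays. Read by the labels, each test sets 1 pool against 1 pool, and its p-value measures only the spread between amplifications. The tissue label changes with the genotype, so an effect of the lost enzymes and a difference in the tissue collected cannot be told apart. Nor can fewer lens-forming cells and less RNA per cell.

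The lens arises where head ectoderm meets the optic vesicle. The ectoderm thickens into a placode, which folds into a pit and then a vesicle whose front cells stay an epithelium and whose back cells elongate into crystallin-filled fibres. Pax6, a paired and homeodomain protein, is needed in the ectoderm for the placode to form, and a second layer of regulators is switched on after it. Mab21l1, of the Mab-21 family of nucleotidyltransferase-fold proteins, is required for the placode to fold inwards. Foxe3, a forkhead factor, and Pitx3, a paired-like homeodomain factor, maintain the lens vesicle and its epithelium. Maf, a basic leucine zipper factor, and Prox1, a homeodomain factor, drive fibre elongation and crystallin expression. Hsf4, a heat shock factor, acts in the later, differentiating lens.

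Values are log2 intensities after background correction and quantile normalization, and differences are KO minus WT. A probe was taken as above background on an array where its detection p-value, its rank among the negative control beads of that array, was under 0.01, and it was tested where this held on all 3 arrays of at least 1 genotype. A probe was called where limma's Benjamini-Hochberg adjusted p over all 12697 tested probes was under 0.05 and the log2 difference was at least 1 in size. Between 12212 and 17195 of 45281 probes were above background per array. WT replicate 1 stood apart, with a raw median intensity of 141 against 85.6 to 95.5 on the others, and with the fewest probes above background. The Pearson correlation between arrays was 0.772 to 0.790 within WT, 0.846 to 0.856 within KO and 0.733 to 0.776 between genotypes. The brightest tested probes of Crebbp and Ep300 differed by 0.19 ± 0.50 and 0.18 ± 1.10 (SE, limma adjusted p = 0.910 and 0.963). Another tested Ep300 probe, above background only in KO, was at least 3.03-fold higher there and was not called (adjusted p = 0.0738). Where these probes lie relative to the deleted parts was not examined, so they do not check the genotype. A probe of Xist, the RNA of the inactive X chromosome in females, differed by 5.35 (limma unadjusted p = 1.31e-06). Probes of the Y-linked genes Eif2s3y and Kdm5d differed by -1.04 and -0.48 (limma unadjusted p = 0.257 and 0.416). A difference in embryo sex between the genotypes was not tested, and its effects cannot be told apart from those of the genotype.

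Every tested probe of the lens regulators was dimmer in KO, for 5 of the 6 genes. Pitx3, Foxe3 and 1 of both Mab21l1 probes passed the test, whereas Maf, Prox1 and the other Mab21l1 probe did not. Hsf4 was not above background on any array. In total 3 of 7 tested probes were called lower and 0 were called higher, beside 0.425% of all tested probes called lower and 0.417% called higher. In normalized values the KO arrays lay below the WT arrays without overlap on all 7 tested probes, as they did for 10.2% of all tested probes. All 7 were lower at an unadjusted p under 0.05 by limma, against 6.61% of all tested probes. Because the genes were named with earlier results known, these shares are a background and not a test of the set.

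These counts have to be read with the filter. The probes of Foxe3, Pitx3, Maf and the dimmer Prox1 probe entered the test only because all 3 WT arrays were above background, a route that a lower KO level favours. Of the 889 probes that entered that way, 4.84% were called lower, 39.8% had KO arrays below all WT arrays and the median difference was -1.23. By limma, 39.7% of them were lower at an unadjusted p under 0.05. The brighter Prox1 probe and both Mab21l1 probes were above background on all 6 arrays. Of the 8894 probes that entered through both genotypes, 0.124% were called lower and 10.5% had KO arrays below all WT arrays. By limma, 5.44% of these were lower at an unadjusted p under 0.05. The plot of the 8 probes on each array shows the individual values.

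**Figure D1:**
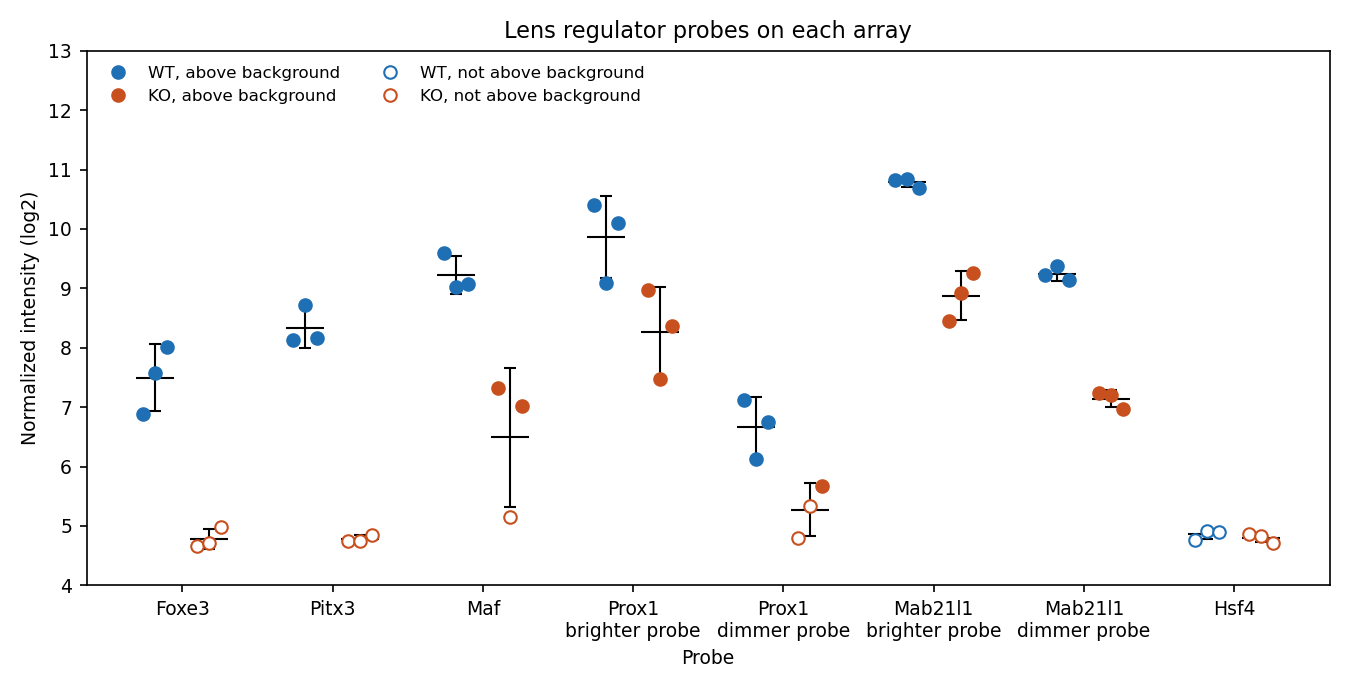
Normalized log2 intensity (vertical axis) of the 8 probes of the 6 lens regulators on 3 WT (blue) and 3 KO (orange) arrays; hollow points were not above background, horizontal lines are group means and bars are 1 SD. The WT and KO points of the first 7 probes do not overlap, the KO points of Foxe3 and Pitx3 sit between 4.67 and 4.98 at background, and Hsf4 is at background on every array.

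The RefSeq promoter table (GRCm38.p6) held windows from 250 bases before to 50 bases after the start site for Foxe3, Pitx3 and Prox1, 3 of the 6 genes. The windows of Foxe3 and Pitx3, both called lower, and the first of both Prox1 windows are shown to place the genes and to compare their composition. Capitals mark matches, on either strand, to 9 short motifs: the homeodomain core TAATTA and the Pitx type site TAATCC, the CRE motif TGACGTCA and the large Maf protein site TGCTGAC, the TATA box TATAAA and the CCAAT box CCAAT, the GC box GGGCGG and the Sox type site ATTGTT, and the E-box CAGCTG. The Foxe3 window lies at chr4:114926018-114926317, the Pitx3 window at chr19:46148276-46148575 and the Prox1 window at chr1:190170778-190171077, all on the minus strand and written 5′ to 3′ along the gene.
Foxe3: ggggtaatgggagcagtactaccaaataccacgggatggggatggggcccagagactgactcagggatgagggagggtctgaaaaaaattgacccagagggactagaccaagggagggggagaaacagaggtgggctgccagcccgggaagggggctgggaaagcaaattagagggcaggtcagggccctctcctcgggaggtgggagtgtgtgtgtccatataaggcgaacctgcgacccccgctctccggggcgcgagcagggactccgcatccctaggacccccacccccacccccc
Pitx3: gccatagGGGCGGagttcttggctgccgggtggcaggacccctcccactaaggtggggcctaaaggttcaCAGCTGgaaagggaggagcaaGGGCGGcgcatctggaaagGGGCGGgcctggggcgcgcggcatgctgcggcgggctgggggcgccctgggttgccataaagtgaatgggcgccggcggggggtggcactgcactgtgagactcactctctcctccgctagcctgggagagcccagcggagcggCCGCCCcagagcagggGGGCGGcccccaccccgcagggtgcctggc
Prox1: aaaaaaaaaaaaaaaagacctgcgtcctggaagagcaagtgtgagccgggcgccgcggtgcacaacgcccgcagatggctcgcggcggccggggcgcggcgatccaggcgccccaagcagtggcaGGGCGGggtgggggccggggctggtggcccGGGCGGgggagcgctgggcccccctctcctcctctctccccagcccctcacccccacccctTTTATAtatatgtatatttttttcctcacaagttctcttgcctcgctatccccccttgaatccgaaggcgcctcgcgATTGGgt

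All 3 windows were richer in G and C than the median of 52.7% over 32851 promoter windows, with 63% in Foxe3, 71.7% in Pitx3 and 64.3% in Prox1. The Pitx3 window held 5 GC boxes, a motif present in 35.7% of all windows, and 1 E-box of the searched type, present in 16.3%. The Prox1 window held 2 GC boxes, 1 CCAAT box (37.4% of all windows) and 1 TATA box (13.6%), the last 2 on the opposite strand. None of the 9 motifs matched in the Foxe3 window. The homeodomain core, held by 5.29% of all windows, the Pitx type site (7.06%) and the large Maf protein site (4.67%) were found in none of the 3, which says only that these letters are absent from these windows. The CRE motif (1.79%) and the Sox type site (10.7%) were likewise not found. A match is a description of the sequence and was not set against binding.

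Mab21l1, the earliest acting of the set, was measured on all 6 arrays by both of its probes. The brighter probe (ILMN_1212752) read 10.82, 10.84 and 10.69 on WT replicates 1 to 3 and 8.44, 8.93 and 9.26 on KO replicates 1 to 3. The dimmer probe (ILMN_2745902) read 9.22, 9.38 and 9.13 in WT and 7.24, 7.20 and 6.97 in KO. On both probes every KO array was at least 1.43 log2 units below the lowest WT array, and the WT arrays lay within a narrow band. The brighter probe fell by 1.90 ± 0.30 on the log2 scale (SE; 95% interval -2.64 to -1.17), a fold of 3.75, and just missed the threshold (limma adjusted p = 0.0569). The dimmer probe fell by 2.10 ± 0.25 (-2.71 to -1.50), a fold of 4.30, and was called (adjusted p = 0.0332). The KO arrays had an SD of 0.41 on the brighter and 0.14 on the dimmer probe, and the intervals of both differences overlapped. With both probes averaged, the difference was -2.00 (adjusted p = 0.0353).

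Mab21l1 kept signal in KO: its scanner intensity was 434, 549 and 694 on the KO arrays for the brighter probe, against 2035, 1876 and 1822 in WT. All 3 KO readings of each probe were above background, so that this decrease, unlike those of Foxe3 and Pitx3, has a measured size on both sides. On the KO arrays the probes took opposite orders, with the brighter lowest and the dimmer highest on KO replicate 1. 

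Foxe3, the forkhead factor of lens epithelium, was seen only in WT. Its probe (ILMN_1225391) read 6.89, 7.58 and 8.02 in WT replicates 1 to 3 against 4.67, 4.72 and 4.98 in KO, and the scanner gave 237, 231 and 298 against 76.0, 75.6 and 92.7. No KO array was above background, with detection p-values of 0.107 to 0.838 there, and WT replicate 1 passed narrowly at 0.00855. Foxe3 was at least 3.24-fold lower in KO (limma adjusted p = 0.0404). That bound sets the WT mean of 7.50 ± 0.57 (SD, n = 3) against the mean of 5.80 that the dimmest signals above background reach on the KO arrays. The fitted difference was -2.71 ± 0.36 (SE), and without background correction it was -1.60, a fitted 3.04-fold, at an adjusted p of 0.0902, so that the bound holds only for the background correction used here. Without WT replicate 1, the array with the brighter background, it was -3.08.

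Pitx3, whose loss in mice leaves the eye without a proper lens, was likewise seen only in WT. Its probe (ILMN_2679243) read 8.13, 8.72 and 8.16 in WT against 4.75, 4.75 and 4.85 in KO. The lowest WT array stood 3.27 log2 units above the highest KO array, and scanner intensities were 407, 450 and 328 against 81.1, 77.8 and 86.7. All 3 KO readings were at background, with detection p-values of 0.281 to 0.580. Pitx3 was at least 5.80-fold lower in KO (adjusted p = 0.0201), with a fitted difference of -3.55 ± 0.28 (SE; 95% interval -4.23 to -2.87). Without background correction it was a fitted 4.65-fold lower, less than that bound, which therefore holds only for the background correction used here. Without WT replicate 1 its fitted difference was -3.72.

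Maf, the leucine zipper factor of fibre cells, was lower in KO but with a scattered KO group. Its probe (ILMN_3100322) read 9.60, 9.02 and 9.07 in WT against 7.31, 5.15 and 7.02 in KO. KO replicates 1 and 3 were above background and KO replicate 2 was not, at a detection p-value of 0.0524, with scanner intensities of 249, 97.7 and 218. The mean was 9.23 ± 0.32 in WT and 6.50 ± 1.17 in KO (SD, n = 3). The difference of -2.73 ± 0.61 (SE; 95% interval -4.22 to -1.25) did not pass (limma adjusted p = 0.115). It includes 1 background reading, was a fitted 3.97-fold without background correction against 6.65-fold with it, and was -2.09 without KO replicate 2 and -3.16 without KO replicate 1.

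Prox1, the homeodomain factor of fibre cells that lymphatic endothelium also uses, was measured by a pair of probes, and neither passed the test. The brighter probe (ILMN_2598766) read 10.40, 9.08 and 10.10 in WT against 8.96, 7.47 and 8.37 in KO. The dimmer probe (ILMN_2894355) read 7.12, 6.12 and 6.75 in WT and 4.79, 5.34 and 5.68 in KO, where only KO replicate 3 was above background. Both probes were lowest on WT replicate 2 among the WT arrays, and on the brighter probe that array lay just 0.12 above KO replicate 1. The differences were -1.59 ± 0.53 (SE; 95% interval -2.88 to -0.31; limma adjusted p = 0.238) and -1.39 ± 0.39 (-2.34 to -0.45; adjusted p = 0.178). In scanner intensities the brighter probe gave 1559, 566 and 1226 against 581, 255 and 415, so that Prox1 signal remained on every KO array. Before normalization the genotypes overlapped on both probes. WT replicate 2 lay below KO replicate 1 on the brighter, and below KO replicate 3 on the dimmer, at 118 against 128. On the KO arrays the probes did not move together, the brighter being highest and the dimmer lowest on KO replicate 1. Without background correction the dimmer probe read -0.74, a fitted 1.67-fold against 2.63-fold with it. The brighter probe read -1.97 without KO replicate 1 and -1.20 without KO replicate 2.

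Hsf4, the factor of the differentiating lens, gave no signal above background. Its probe (ILMN_2746797) read 4.77, 4.91 and 4.90 in WT against 4.87, 4.84 and 4.71 in KO, and its lowest detection p-value was 0.268. Scanner intensities were 114, 82.6 and 83.8 against 87.7, 82.2 and 79.0, with the highest value on the array of brighter background. It was not tested, and a difference could not have been detected at this signal.

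**Figure D2:**
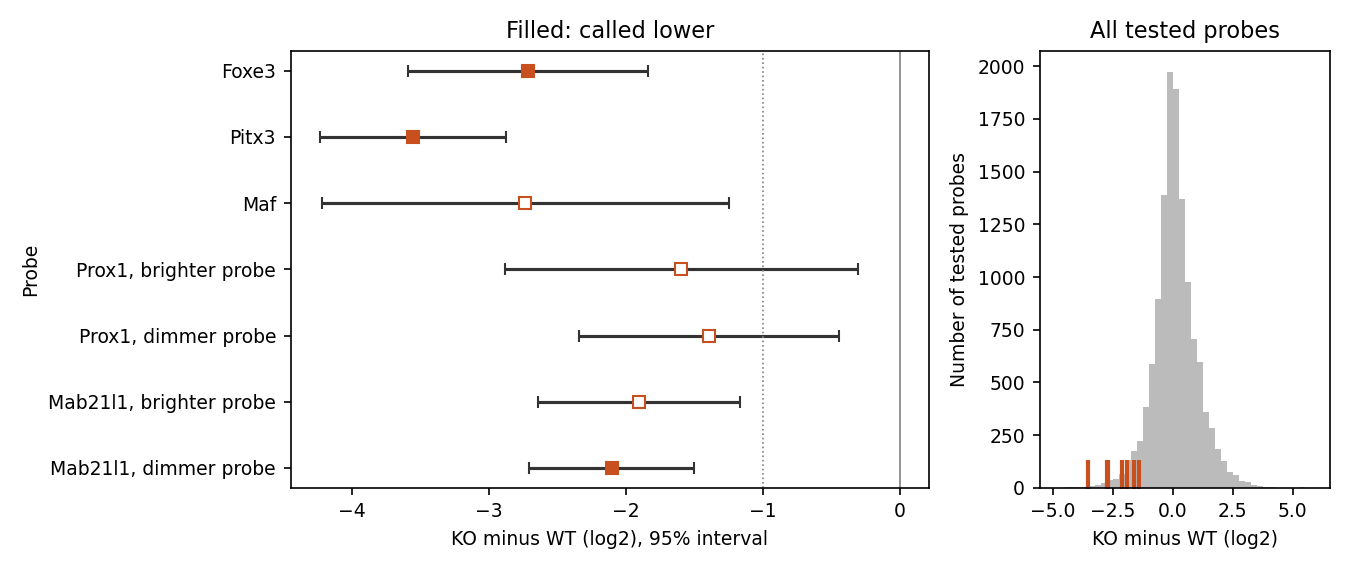
KO minus WT log2 difference with its 95% interval for the 7 tested probes of the lens regulators (left; filled squares were called lower, the dotted line marks a difference of -1) and the distribution of all 12697 tested probes in bins of that difference (right; orange ticks are the same 7 probes). The intervals of Pitx3, Foxe3, Maf and both Mab21l1 probes end below -1, those of both Prox1 probes reach above it, and all 7 ticks lie in the left tail.

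The sizes of the decreases were compared in pairs, taking the brightest probe of each gene and setting it against another on the same array. Over the 10 pairs, the within-array difference of the probes separated WT from KO without overlap in 4. On the log2 scale the Foxe3 difference minus that of Pitx3 was 0.84 ± 0.35 (SE). The Pitx3 difference minus that of Mab21l1 was -1.65 ± 0.27 and minus that of Prox1 -1.96 ± 0.73, and Maf minus Prox1 was -1.14 ± 0.41. Each of these 4 reached p = 0.1 by an exact two-sided permutation test, the smallest that 3 against 3 arrays allow, and 0.25 after Benjamini-Hochberg adjustment over the 10 pairs, so none could pass. Pitx3 and Foxe3 read background in KO, so their values in these pairs are set by the floor and by the WT levels, and no order of the decreases was read from them.

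The bead level error was small beside these changes. Each reading averaged 25 to 55 beads, and the standard error over beads was 1.96% to 6.08% of the intensity. The SD of the log2 values over the 3 arrays of a genotype ran from 0.06 for Pitx3 in KO to 1.17 for Maf in KO. The Pitx3 readings in KO were all at background, so 0.06 is not the spread of a measured level. Where all 3 arrays were above background, the lowest SD was 0.08, for the brighter Mab21l1 probe in WT.

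Across the 6 arrays, the profile of each regulator with a tested probe had a Pearson correlation of 0.824 (Prox1) to 0.954 (Pitx3) with the mean of the others. The 5 genes whose brightest probes were most like the mean profile of the regulators were Hmga2, a chromatin protein of embryonic tissue (r = 0.995, 6 arrays), Ddit4, a stress-induced inhibitor of mTOR signalling (0.994), Igfbp5, a binding protein of insulin-like growth factors (0.993), Flrt2, an adhesion protein (0.992), and Slc5a3, a myo-inositol transporter (0.989). These points fall into 2 clusters by genotype and share amplification and BeadChip, and r here takes in the separation of the genotypes. Slc5a3 was above background on 3 WT and 0 KO arrays, so its KO values are set by the floor. The differences of the 5 ran from -3.09 for Igfbp5 (adjusted p = 0.0201, the only one called) to -0.31 for Ddit4 (adjusted p = 0.609), so likeness of profile did not mean likeness of size.

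The factors above and beside these regulators were examined next. Of 12 lens induction factors on the array 10 were tested, 8 had negative differences and the median was -0.99, with 0 called in either direction by limma (5 lower and 1 higher at an unadjusted p under 0.05). Over all 7141 tested genes, by their brightest probes, 3407 were negative, the median was 0.03 and 0.49% were called lower. Pax6 itself differed by -0.20 ± 0.29 (SE, limma adjusted p = 0.814; other probe -0.54) and Six3, its homeodomain partner in lens induction, by 0.15 ± 0.43 (adjusted p = 0.922; other probe 0.13), the intervals reaching from -0.90 to 0.49 and from -0.91 to 1.20. Sox2, the HMG box partner of Pax6 at lens enhancers, read -1.74 ± 0.27 on its brightest probe (adjusted p = 0.0552) and 0.41 on another. Of 14 other lens transcription factors on the array 9 were tested, all 9 had negative differences with a median of -1.58, and 0 were called (5 lower unadjusted); with no filter on detection the median over the 14 was -1.04.

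Relatives of the regulators, genes of the same families, were set beside them. Of 16 relatives on the array 6 were tested, 1 was negative, 0 were called in either direction (0 lower and 2 higher unadjusted) and the median was 0.45 (0.02 over the 16 with no filter). Mab21l2, the close paralog of Mab21l1 that acts in the optic vesicle and lens, read 4.81, 5.23 and 5.78 in WT against 6.67, 7.05 and 7.45 in KO, above background only in KO. It was at least 1.85-fold higher in KO and did not pass the test (limma adjusted p = 0.0967). Maff, a small Maf protein without an activation domain, was also above background only in KO, at least 1.61-fold higher (adjusted p = 0.210). Mafg, another small Maf protein, read 0.26 on its brightest probe and -0.71 on the other, and Hsf2, a heat shock factor, 0.65 (adjusted p = 0.496). Mab21l2 and Maff entered the test through KO alone, a route that a higher KO level favours.

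Downstream of the regulators, few lens genes were yet measurable. Of 30 genes listed as later lens genes on the array 9 were tested, 7 of them negative with a median of -0.50 (-0.12 over the 30 with no filter). Crygd and Cryge were the only crystallins among the 9. The rest were Ccna2, Cdkn1b, Cdkn1c, Pdgfra, Cdh1, Fgfr1 and Fgfr2, of which Cdh1 and Pdgfra also count as tissue markers below. The median of -0.50 was the value of Fgfr2 and does not describe the crystallins. The other 21 had no tested probe. Cryaa, the main lens crystallin of the small heat shock family, and Dnase2b, the nuclease of maturing fibres and a target of Hsf4, were among those never above background. Crygd, a gamma-crystallin, read 7.27, 8.15 and 8.01 in WT against 4.65, 5.003 and 4.73 in KO, all 3 at background, and was called lower, at least 4.03-fold (adjusted p = 0.0271), having entered the test through WT alone. Another Crygd probe (ILMN_2772482) was above background on no array, WT included, with a lowest detection p-value of 0.268. Cryge, a second gamma-crystallin, read 9.31, 8.90 and 8.55 in WT and 4.72, 4.63 and 6.43 in KO and just missed the threshold (-3.65 ± 0.55, adjusted p = 0.0533). Gamma-crystallin genes are near-identical copies, so signal of one could come from another.

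**Figure D3:**
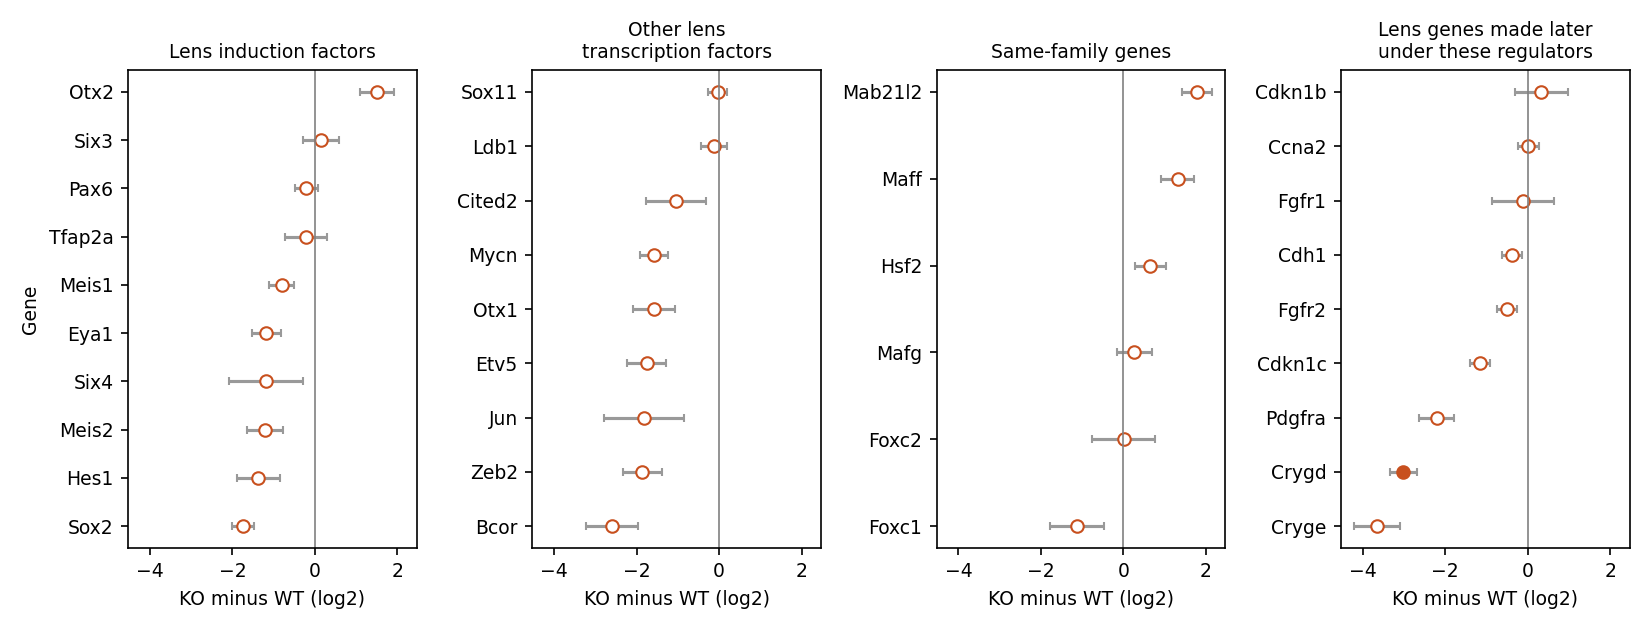
KO minus WT log2 difference (horizontal axis, bars 1 SE) of the brightest tested probe of each gene in 4 lists around the lens regulators; filled points were called. All 9 other lens transcription factors lie at or left of 0, 5 of the 6 same-family genes lie at or right of it, and Crygd is the only filled point.

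Markers of tissues that the dissection could hold moved as well. The summed normalized intensity of 10 surface ectoderm markers ran from 20242 to 22009 in WT and from 13614 to 16059 in KO. Of the 10, 9 were above background on all 6 arrays. The sum weighs the brightest probes most, such as those of Cdh1 and Tfap2c. The 9 tested markers had a median difference of -0.39, with 8 negative, 0 called and 3 lower at an unadjusted p under 0.05 by limma. They ran from -1.95 for Cdh3 to 0.49 for Cldn6, with Epcam at -0.04. The sum of 7 blood markers was 5733 to 7490 in WT and 13711 to 14288 in KO (Epor on no array), and that of 8 endothelial markers was 266 to 299 in WT and 600 to 1010 in KO, with Cdh5, Emcn, Kdr, Pecam1 and Tie1 above background on no array. Cldn5 was the only endothelial marker tested, with means of 5.18 in WT and 8.85 in KO, and it was not called (limma adjusted p = 0.0711). It was above background only in KO, so the higher endothelial sum does not speak for the whole list. For 7 optic vesicle markers the summed ranges overlapped, at 925 to 4893 and 1582 to 2631 (Hes5 and Six6 on no array), while the 4 tested ones had a median difference of 1.01 with 3 positive, among them Otx2, above background only in KO and at least 2.03-fold higher (adjusted p = 0.173). They overlapped too for 11 markers of periocular mesenchyme and neural crest, at 2561 to 4326 and 2678 to 3192 (Twist1 on no array), but these moved in opposite directions. Their 9 tested genes had a median of 0.97, 4 were higher and 2 lower at an unadjusted p under 0.05, and Alx4 was called higher, at least 10.7-fold (adjusted p = 0.0489), beside -2.21 for Pdgfra and -2.86 for Snai2. The called Alx4 probe entered the test through KO alone. The Alx4 probes ILMN_2708458 and ILMN_2904175 were not tested, the first above background on no array and the second on 1 WT and 1 KO array. The sums of 5 macrophage markers were 154 to 791 and 151 to 163 (Csf1r, Lyz2, Ptprc and Tyrobp on no array). The part of these shifts in the lower levels of the lens regulators was not tested.

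How far each value rested on 1 array or on the processing is drawn in the plot of the differences under all settings. In every fit the difference was negative for every regulator probe that was tested. With any 1 of the 6 arrays left out, 0 regulator probes were called, as were 0 of all tested probes in either direction by limma, while at an unadjusted p under 0.05 these fits had 675 to 1222 probes lower and 1033 to 1188 higher, 6 or 7 of the 7 regulator probes among the lower. Without WT replicate 1, the array that stood apart, the differences were -2.58 for Maf, -1.32 and -1.22 for the brighter and dimmer Prox1 probes and -1.88 and -2.12 for those of Mab21l1, besides the values of Foxe3 and Pitx3 given with them.

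**Figure D4:**
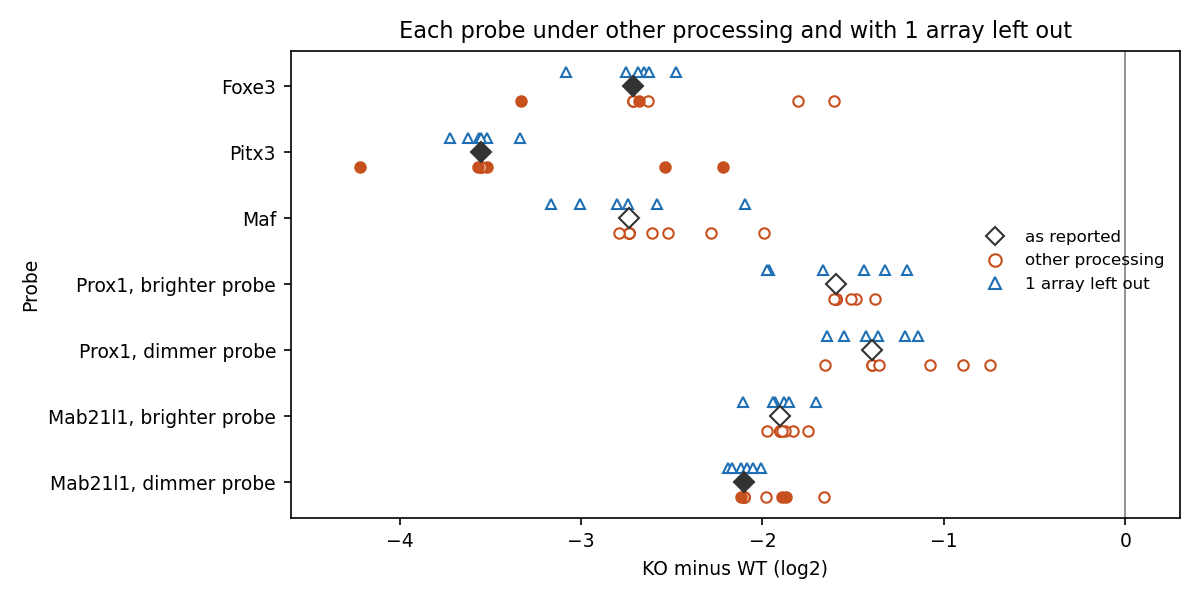
KO minus WT log2 difference (horizontal axis) of the 7 tested probes as reported (black diamonds), with other processing (orange circles) and with 1 array left out (blue triangles); filled symbols were called lower. No symbol reaches 0, no triangle is filled, and Pitx3 is called under more of the other settings than Foxe3 or Mab21l1.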

How the data were processed

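The authors deposited, per the file headers, for each of 45281 probes of the Illumina MouseWG-6 v2 array the scanner intensity (linear, neither background-subtracted nor normalized), its bead standard error, the count of beads, and a detection p-value against negative controls. The authors also deposited processed intensities, made in GenomeStudio (its version is not given in the sources used here) after cubic spline normalization; these served as an alternative. All value columns belonged to the 6 arrays of the series.

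In R 4.3.3 with limma 3.58.1, intensities were corrected by normexp from the detection p-values (offset 16), quantile normalized and log2 transformed. The fit took probes above background (detection p-value under 0.01) in every array of 1 genotype or both, with a mean per genotype (lmFit, eBayes, two-sided, Benjamini-Hochberg over 12697 probes). limma took the place of GenomeStudio's test, and was checked on simulated data. The simulated probes all had the same spread and no background floor, so that check does not cover probes at background or of unlike spread. A probe at background on all arrays of a genotype gives a bound. Symbols came from the platform annotation, and a gene with several probes is given by its brightest, the others beside it. Alternatives were another background correction, scaling, filter, array weights, a replicate block and leaving out each array. All regulators were named, with related genes and nearest profiles by a written rule. The genes and lists were chosen with earlier results of these data known.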

Additional observations from a re-analysis of the deposited data

How the results depend on the processing

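Against 54 probes called lower and 53 higher, the numbers were 17 and 19 without background correction, 26 and 27 with an offset of 50, 36 and 30 with no filter, 0 and 0 for probes above background on at least 5 of 6 arrays, 21 and 24 with a detection p-value under 0.05, and 29 lower with median scaling beside 63 higher, a shift in the balance of directions. At an unadjusted p under 0.05 the filter on 5 of 6 arrays still had 651 lower and 634 higher. A replicate block left 0 and 0 (772 and 1042 unadjusted), although same-numbered arrays did not deviate together (r = -0.0135, 0.00126 and -0.0261), so the numbers do not pair them. With 1 array left out, 0 probes were called in either direction, regulator probes included.

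Of the regulator probes, 3 were called as reported, 1 with median scaling (Pitx3), 1 with a detection p-value under 0.05 (Pitx3), 0 with the replicate block and 0 with the filter on 5 of 6 arrays, which drops Foxe3, Pitx3 and the dimmer Prox1 probe. Foxe3 was no longer called without background correction (-1.60, limma adjusted p = 0.0902), with an offset of 50 (-1.81, 0.0808), with median scaling (-2.63, 0.0566), with no filter (-2.71, 0.0944), with a detection p-value under 0.05 (-2.71, 0.0602) or with the replicate block (-2.71, 0.207). Leaving out 1 array gave -3.08 to -2.48 (adjusted p = 0.0693 to 0.138). Pitx3 was lost with the replicate block (-3.55, 0.207) and when 1 array was left out (-3.72 to -3.34, 0.0581 to 0.0929). The called Mab21l1 probe was lost with median scaling (-1.98, 0.0725), a detection p-value under 0.05 (-2.10, 0.0545), the filter on 5 of 6 arrays (0.101), the replicate block (0.207) and each array left out (-2.19 to -2.01, 0.0768 to 0.117). With both probes averaged, Mab21l1 passed (-2.00, 0.0353). Without the filter, the list medians moved to -1.04 for other lens transcription factors, 0.0204 for same-family genes and -0.12 for later lens genes. The cause of these changes was not tested, other than that a smaller filter or sample changes the number of probes or arrays in the fit. Signal over background limits Foxe3, Pitx3 and Hsf4 most.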
